A study of Mus musculus with 22 samples.

Results

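The array used for these brains carried probes for 3539 genomic intervals annotated as long non-coding RNA (lncRNA), each written in the design as a chromosome, a start, an end and a strand letter, F or R. Described here are the 1377 of these intervals in which exactly 1 strand had a probe that Agilent's Feature Extraction marked as well above background on all 22 arrays. They were selected on that mark, so their detection in every fraction is a property of the choice and not a result. In another 304 intervals both strands met the mark everywhere, and in 1858 neither did. The 1377 intervals were read by 2244 of the 16150 lncRNA probes, 701 of them on strand F and 676 on strand R. A single probe read 857 intervals, and 520 were read by up to 8 probes, of which the probe with the highest median level was used. Coordinates are those of the mm9 build as the array design gives them, and no gene model was set against them here.

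Long non-coding RNAs are transcripts that carry no long open reading frame, and many are spliced and polyadenylated like messenger RNAs. Some act in the nucleus on chromatin or on neighbouring genes, some bind proteins or microRNAs, and some are by-products of transcription or ends of messenger RNAs. In the brain many are found in few cell types or regions, and many lie antisense to, or beside, genes that pattern the nervous system.

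In Transcriptome Tomography a frozen brain is cut along 1 axis, the slices are pooled into slabs (fractions), and the RNA of every fraction is hybridised to an array. The fractions came from 3 male C57BL/6J mice with no mutation or treatment named, 1 mouse for the coronal series of 10 fractions, 1 for the horizontal series of 6 and 1 for the sagittal series of 6. By their titles the mice were 7 days old, whereas the age field says 3 days. No fraction was measured again, so there is no spread between animals at any position, and precision is limited by how few arrays there are. The sources differ on the thickness of a slab, and the labels do not name the end at which fraction 1 lies. The level of a probe is log2 of its processed intensity minus log2 of the array's 75th percentile, and in a bulk fraction fewer cells of a type and less RNA per cell cannot be told apart.

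Regional marker genes placed the coronal fractions. Hoxb5, Hoxa5 and Hoxb3 of the hindbrain were highest in fraction 1, 3 of 5 cerebellar genes (Barhl1, Zic1 and Pcp2) in fraction 3, and Tcf7l2, Lef1, Hcrt, Avp and Pomc of the thalamus and hypothalamus in fraction 6. Drd1, Ppp1r1b and Rgs9 of the striatum were highest in fraction 8, Tbr1 of the cortex in fraction 9, and Eomes, Cdhr1, Doc2g and Dlx2 of the olfactory bulb in fraction 10. The other cerebellar genes, Gabra6 and Calb1, were highest in fraction 2, Emx1 and Prox1 of the cortex and hippocampus in fractions 5 and 6, and the midbrain genes Slc6a3, En2 and Th in fractions 5, 2 and 10. The midbrain gene En1 was well above background on 0 arrays. On a single array between 53.2% and 75.4% of 55600 probes were detected in this sense. On 7 arrays (coronal 1 and 2, horizontal 1, 2 and 3, sagittal 1 and 3) the response slope of the added spike-in RNAs was outside the range set in the file headers, and the dim spike-in probe called a107 read between 6.39 and 7.94 (log2 intensity) against 3.07 to 4.94 on the other 15. Among these arrays, coronal fraction 2 was alone on its slide and scan day, and the horizontal series was alone on another slide. Coronal fractions 9 and 10 shared a slide with the sagittal series. These differences move with the intervals as given at each result.

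Of the 1377 intervals, 896 (65.1%) had no probe on the other strand in the design, so for them the other strand was not measured by the interval's own probes. For 300 of these 896, an overlapping interval held that other strand well above background everywhere. The other 481 intervals (34.9%) had probes on both strands. The brightest probe of their other strand was well above background on 0 arrays in 23 intervals, on 1 to 11 arrays in 276, on 12 to 20 in 145 and on 21 in 37. The median was 9 arrays. The strand found everywhere lay above the other strand by a median of 3.48 log2 units, with quartiles of 2.34 and 5.09, and the difference ran from -0.36 to 11.46. Only 4 of the 481 were negative. The direction of this difference follows from how the intervals were chosen, and it sets different probes against each other, so it describes the set and is not a measure of strand abundance.

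**Figure D1:**
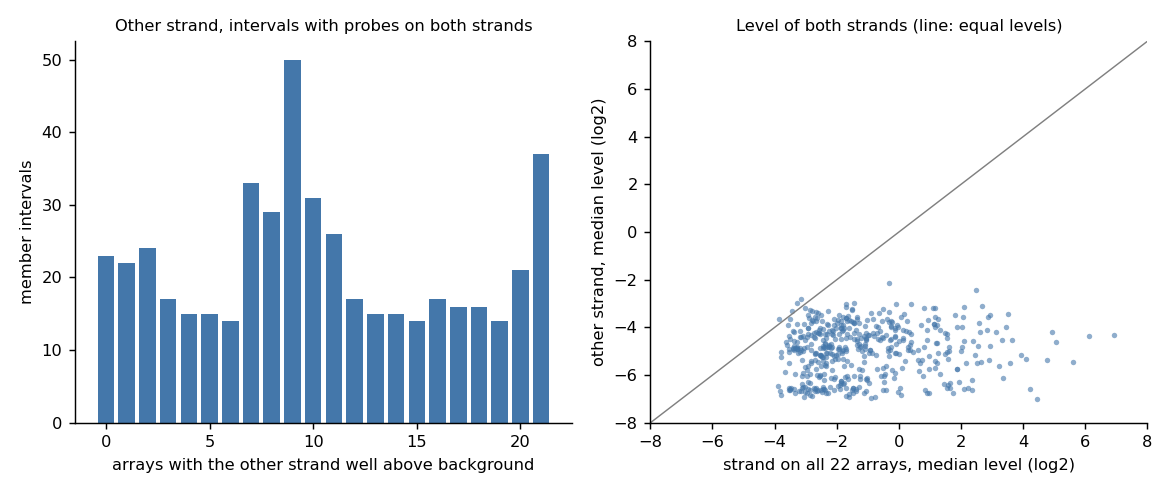
Left, the number of member intervals (vertical axis) by the number of arrays on which the other strand was well above background (horizontal axis), for the 481 intervals with probes on both strands. Right, the median level of the other strand against that of the strand found on all 22 arrays, both in log2 units relative to the 75th percentile of the array, with 1 point per interval. Nearly all points lie under the line of equal levels, and 37 intervals had the other strand on 21 arrays.

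The edge of the rule is fine. The interval chr5:31856417-31916317 (probe A_30_P01027058) was kept at a median of 3.53 on strand F because its other strand, at a median of -3.44, missed the mark on coronal fraction 8 alone. Likewise chr10:126818382-126856582 (A_30_P01030420) was kept at 2.86 on strand F, with its other strand at -3.57 missing on horizontal fraction 6 alone. Outside the rule lay 97 intervals with a strand on 21 arrays and none on 22. The brightest was chr12:50490638-50508093 (A_30_P01027901), with a median of 1.35 and a lowest level of -4.90, missed on coronal fraction 3. The next, chr18:4415233-4415995 (A_30_P01025110), had a median of -1.05 and a lowest level of -5.30, missed on coronal fraction 2. Strands that miss 1 array in 22 therefore sit on both sides of the boundary. For members whose other strand was on 21 arrays, the strand found on all 22 had a median level of -1.01. For the intervals just outside, the strand on 21 arrays had a median level of -3.45. These strands differ in the mark that the rule used, so the levels are not a like comparison.

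Most of the intervals were dim. Their median level was -1.69, with quartiles of -2.59 and -0.05 and extremes of -4.12 and 7.75, while RefSeq probes found on all 22 arrays had medians between 0.37 and 0.78 in the coronal and horizontal fractions. Of the intervals, 563 lay below -2, 474 between -2 and 0 and 340 above 0. Their lengths had a median of 10176 bp and ran from 90 to 533972 bp.

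Along the coronal series the intervals were most often highest in fractions 2, 10 and 9. Fraction 2 held the highest level of 391 intervals (28.4%) and also the lowest level of 394 (28.6%). Fraction 10 was the highest for 291 (21.1%), fraction 9 for 211 (15.3%), fraction 3 for 130 and fraction 1 for 104. The middle of the series was seldom highest, with 21 intervals in fraction 4, 52 in fraction 5, 61 in fraction 6, 44 in fraction 7 and 72 in fraction 8. Among 18299 RefSeq probes found on all 22 arrays, fraction 3 was most often highest (23.05%) and fraction 2 was highest for 8.38%. The intervals with both strands found everywhere, read by the brightest probe of each strand, gave a pattern like that of the members, with 23.9% highest in fraction 2, 22.5% in fraction 10 and 18.4% in fraction 9. The peak in fraction 2 was more frequent in dim intervals, at 40.1% below a level of -2, 27.9% between -2 and 0 and 9.71% above 0. Fraction 10 ran the other way, at 16.0%, 20.3% and 30.9%, and in the 340 intervals above 0 fractions 10, 3 (15.0%) and 9 (11.2%) were each more often highest than fraction 2. For fraction 2 the RefSeq probes had the same gradient, at 20.5%, 10.2% and 4.53%. Those below -2 were also more often highest in fraction 2 than in fraction 3 (12.5%). For fraction 10 the RefSeq probes ran opposite to the intervals, at 17.7%, 16.2% and 9.84%. Over the 8 coronal fractions with the spike-in slope in range, the intervals were most often highest in fractions 10 (358), 9 (297) and 8 (276), and fraction 3 followed with 218. Because fraction 2 was alone on its slide, its position and its array cannot be told apart. With a107 regressed out 183 intervals were highest in it, and under median centring of the arrays 230. With no scaling 207 were, and fraction 5 was then most often highest (470).

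**Figure D2:**
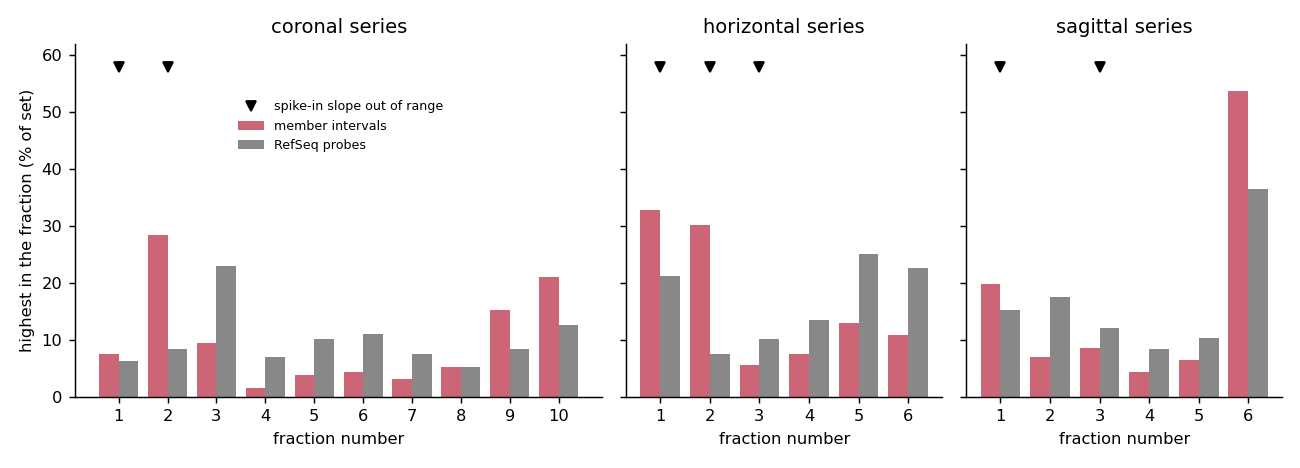
Share of the 1377 member intervals and of the 18299 RefSeq probes found on all arrays (vertical axis, percent of the set) that were highest in each fraction (horizontal axis, fraction number) of the 3 series. Triangles mark arrays with the spike-in slope out of range, and the member intervals stand above the RefSeq probes in fractions 1, 2, 9 and 10 of the coronal series, 1 and 2 of the horizontal and 1 and 6 of the sagittal.

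The range from the lowest to the highest fraction had a median of 1.44 log2 units along the coronal series, 1.20 along the horizontal and 1.12 along the sagittal, against 1.103, 0.884 and 0.784 for the RefSeq probes. Intervals with both strands found everywhere had medians of 1.45, 1.27 and 1.16, and RefSeq probes below a level of -2 had a coronal median of 1.35. Coronal ranges had quartiles of 1.01 and 2.07. A coronal range of at least 4 was found in 51 intervals and a range under 1 in 334. Under normexp background correction the median coronal range was 0.993. Intervals with probes on 1 strand in the design and those with probes on both gave medians of 1.45 and 1.43. These ranges come from single arrays, and the highest coronal fraction lay on an array with the spike-in slope out of range for 36.0% of the intervals and 14.7% of the RefSeq probes.

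Change along the coronal axis was tested with limma over all 39602 probes found in at least 1 fraction of each series, where slab position entered linearly and squared, and p-values were Benjamini-Hochberg adjusted over all of them. With 1 array per position, these p-values measure only the scatter of single arrays around a curve. Of the 1377 intervals 274 passed, that is 19.9%, beside 19.8% of all probes and 26.2% of the RefSeq probes found everywhere. By the sign of the linear term, 183 rose towards fraction 10 (13.3%, beside 12.4% of all probes) and 91 fell (6.61%, beside 7.43%). The share is near that of all probes. The intervals that passed were highest in fraction 10 in 85 cases, in fraction 9 in 51 and in fraction 2 in 43. The count was 40 with the slide as a block, beside 4.03% of all probes, and 12 with the coronal arrays fitted alone, beside 1.6%. It fell to 165 without coronal fraction 5, 144 without fraction 6, 168 without fraction 7 and 181 without fraction 9. The shares of all probes in these fits were 14%, 12.3%, 13.2% and 14.8%. Without coronal fraction 10 the count was 242, beside 19.7% of all probes, and the split turned to 115 rising and 127 falling. The split also turned with no scaling, to 53 rising and 60 falling, and it was 109 and 32 under median centring of the arrays.

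Among the intervals that passed, the largest fitted coronal change was at chr8:94841965-94881130 on strand R (A_30_P01032788, 39166 bp). Its level was lowest at -3.98, had a median of -1.77 and was highest at 0.39 in the 10 coronal fractions. Fractions 1 to 4 were high, between -0.67 and 0.39, and fractions 7 to 10 were low, between -3.98 and -3.09, with no overlap. The linear term was -4.67 and the adjusted p in limma was 0.000807, and the call remained under all 13 alternative settings and each of 22 left-out fractions, with a highest adjusted p of 0.0455. Its coronal range was more than 1.5 times smaller with the mean of its member probes and under normexp. Over the 22 fractions the RefSeq probe most like it was that of Crnde, a lncRNA gene first described in colorectal tumours (Pearson r = 0.976), followed by the Iroquois homeobox genes Irx2 (0.928) and Irx1 (0.904), which pattern the neural tube. Crnde lies on the same chromosome. The interval's other member probe had r = -0.24 with this one, so the profile belongs to 1 probe.

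A pair of overlapping intervals on strand F of chromosome 8 gave the next clear profile. The short interval chr8:90048940-90049461 (A_30_P01024798) was lowest at 1.58 in fraction 8, had a median of 2.36 and was highest at 5.27 in fraction 3. The long interval chr8:89996710-90049453 (A_30_P01024770) ran from 2.37 to 6.13, with a median of 3.14, and its lowest and highest fractions were the same. Fractions 1 to 3 stood above all later fractions in both intervals, at 4.77 or more against at most 3.26 in the short one and at 5.44 or more against at most 4.04 in the long one. Adjusted p was 0.0028 and 0.00375 in limma, and each was lost when only the coronal arrays of slide 1, which holds fractions 1 and 3 to 8, were fitted (0.0624 and 0.0832). The call of the long interval was also lost with the coronal series fitted alone. The profiles of the pair had r = 0.998 and the most similar gene was Gm2694, an annotated lncRNA gene of the same chromosome, with r = 0.991 and 0.990. As they overlap on 1 strand, they are not independent readings. All 3 member probes of each interval had r of at least 0.96 with the one used.

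The remaining named intervals with large fitted coronal changes among those that passed lay on chromosomes 6 and 12. Interval chr6:134875724-134931975 on strand F (A_30_P01020056) was lowest at -3.22, had a median of -2.33 and was highest at 0.37, with fractions 1 to 3 above all later fractions (adjusted p = 0.00689 in limma). Its profile was most like H2az2, which encodes a variant of histone H2A (r = 0.982), and like the histone genes H2ac12 (0.971) and H2ac15 (0.971). Its other strand, read by 7 probes, was well above background on 2 arrays. The call was lost with the slide as a block (adjusted p = 0.0701), on slide 1 alone (0.163) and with the coronal series fitted alone. Interval chr12:82500406-82501102 on strand F (A_30_P01020727) was lowest at -3.51, had a median of -2.80 and was highest at 0.89, with fractions 9 and 10 standing above fractions 1 to 8 (adjusted p = 0.00228). All 8 arrays of the slide that holds these 2 fractions and the sagittal series read between 0.40 and 2.04 for it, while the 14 other arrays read between -3.51 and -1.29, and the linear term turned sign with the slide as a block. For this interval position and slide cannot be told apart. The same complete separation, that slide above the others, was found in 22 intervals (1.60%) and in 0.323% of RefSeq probes with a symbol.

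Across the intervals, the most similar of 21944 RefSeq gene probes lay on the interval's own chromosome in 114 cases (8.28%), while 5.20% of gene probes lie on the chromosome of an interval on average. At r of at least 0.95 the count was 44 of 361 intervals (12.2%). The most similar gene was annotated as lncRNA for 63 intervals (4.58%), against 1.32% of gene probes, and for 15 of these it was also on the same chromosome. The highest r of an interval with any gene probe had a median of 0.919, so an r near this value was usual. The best r of the intervals like Malat1 and Ivd, given below, were lower than this median. These likenesses are a description over 22 fractions that share arrays and normalization. The intervals like Zdbf2, Tug1, Ipw, Malat1 and Pvt1 that follow were chosen from this list after their values were seen.

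**Figure D3:**
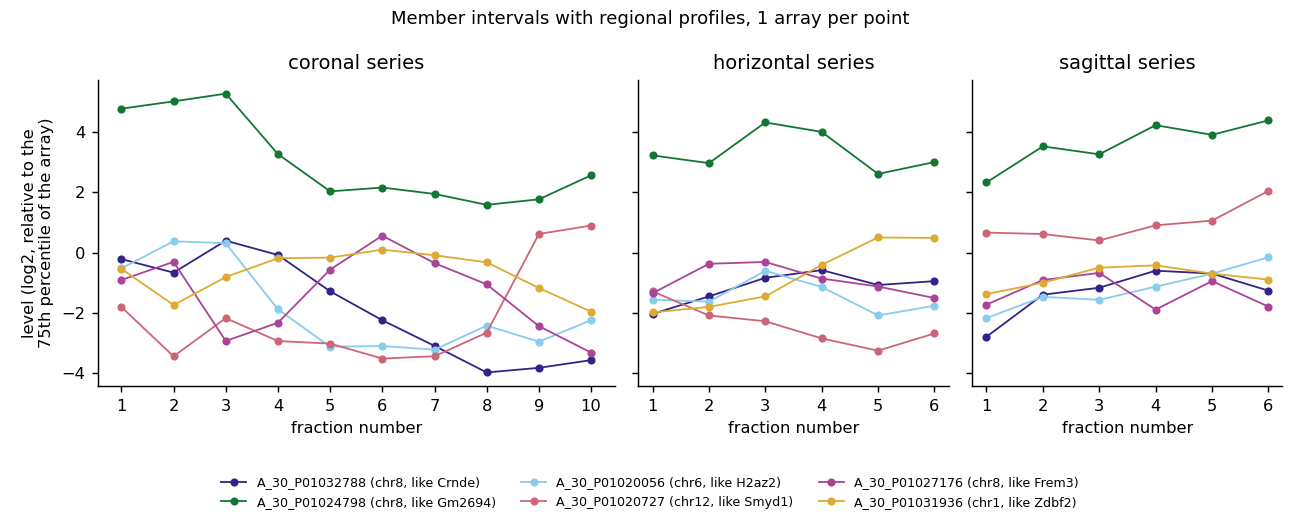
Level (vertical axis, log2 relative to the 75th percentile of the array) of 6 member intervals in every fraction (horizontal axis) of the 3 series, with 1 array per point and no replicate. The intervals like Crnde, Gm2694 and H2az2 were high in coronal fractions 1 to 3, the interval like Frem3 in fraction 6, the interval like Smyd1 in fractions 9 and 10, and the interval like Zdbf2 was highest in coronal fraction 6 and horizontal fraction 5.

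Interval chr1:63319842-63349796 on strand F (A_30_P01031936) was most like Zdbf2, an imprinted gene of its own chromosome (r = 0.982). It was lowest at -1.96 and highest at 0.10 along the coronal series, with a median of -0.43, and fractions 4 to 8 read above all others. In the horizontal series it rose from -1.98 in fraction 1 to 0.50 in fraction 5, with a median of -0.93, the direction in which Avp and Pomc of the hypothalamus were also highest (both in fraction 6). It passed the coronal test (adjusted p = 0.0269 in limma) and the horizontal test (adjusted p = 0.0171). With a107 as a covariate neither held (0.088 and 0.181). The coronal call was also lost without coronal fraction 5, 6, 7 or 10, and the horizontal call without horizontal fraction 1 or 5.

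Interval chr8:83210957-83219451 on strand F (A_30_P01027176) had the largest coronal range among intervals highest in fraction 6. It was lowest at -3.32 in fraction 10, had a median of -0.98 and was highest at 0.56. Fractions 3, 4, 9 and 10 were low, at -2.33 or less. Its nearest gene by profile was Frem3, which encodes an extracellular matrix protein (r = 0.970), and its 3 member probes had r of at least 0.97. The coronal quadratic curve did not capture this profile (adjusted p = 0.208 in limma).

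Intervals like well-known lncRNA genes of the same chromosome differed from each other. Tug1, a nuclear and cytoplasmic lncRNA expressed in many tissues, was the nearest gene of 2 overlapping intervals on strand R. Interval chr11:3542140-3546888 (A_30_P01020465, r = 0.988) was lowest at -0.59 in coronal fraction 2, had a coronal median of 0.49 and was highest at 1.13 in fraction 10 (adjusted p = 0.00623 in limma). Interval chr11:3539787-3548811 (A_30_P01023774, r = 0.966) ran from 0.26 in fraction 1 to 1.42 in fraction 5, with a median of 0.82 (adjusted p = 0.0206). In sagittal fraction 6 the first was at its series' highest, 0.82, and the second at its lowest, -0.57. The profiles of these 2 intervals had r = -0.01 over the 22 fractions although their coordinates overlap, so different probes of the same stretch gave different profiles. The coronal call of both was lost with the slide as a block (adjusted p = 0.102 and 0.0639).

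Ipw, an imprinted lncRNA gene of the Prader-Willi region, was the nearest gene of chr7:66874527-67012170 on strand R (A_30_P01023754, r = 0.979). It was lowest at -1.81, had a median of -1.32 and was highest at 0.35 in the sagittal series, with the next highest fraction at -1.003 (adjusted p of the linear term = 0.00474 in limma, lost without sagittal fraction 6). Malat1, a lncRNA of nuclear speckles, was the nearest gene of chr19:5798135-5800557 on strand R (A_30_P01020935, r = 0.879), which ran from 1.03 to 3.11 along the coronal series with a median of 1.80 and passed no position test. Pvt1, a lncRNA gene beside Myc, was the nearest gene of chr15:62046023-62082530 on strand F (A_30_P01029562, r = 0.975). It lay between -0.92 and 0.21 along the coronal series with a median of -0.25, and passed no position test.

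**Figure D4:**
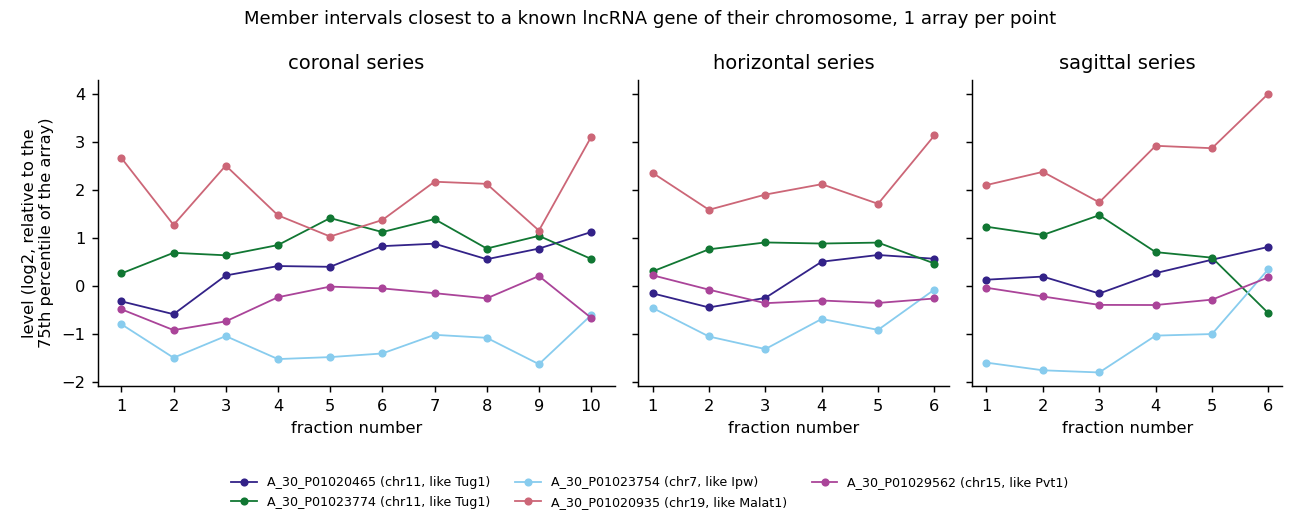
Level (vertical axis, log2 relative to the 75th percentile of the array) of 5 member intervals whose most similar gene is a known lncRNA gene of their chromosome, in every fraction (horizontal axis) of the 3 series, 1 array per point. The 2 intervals like Tug1 part in sagittal fraction 6, where one reads 0.82 and the other -0.57.

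Along the horizontal series 78 of the 1377 intervals passed (5.66%), beside 6.56% of all probes and 8.44% of the RefSeq probes found everywhere. By the linear term 24 rose with fraction number (1.74%, beside 3.94% of all probes) and 54 fell (3.92%, beside 2.62%). Of those that passed, 42 were highest in fraction 1. The 3 arrays with the spike-in slope out of range are fractions 1 to 3, so the first part of this axis moves with a107. The count was 4 with a107 as a covariate, beside 0.255% of all probes, and 0 in the horizontal arrays alone, beside 0% of all probes. It was also 0 when arrays with an out-of-range slope were dropped and without fraction 1, beside 0.0328% and 0.0227% of all probes. At an unadjusted p under 0.05 there were 302 intervals in the horizontal arrays alone, 61 over the arrays in range and 383 without fraction 1. Over the fractions left out in turn the count ran from 0 to 237, beside 0.0227% to 16.5% of all probes. The split was 16 rising and 5 falling under median centring and 41 and 26 with quantile normalization.

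Of the 5 intervals with the largest fitted horizontal change among those that passed, 4 had r of at least 0.8 with the spike-in. Interval chr17:13020750-13033750 on strand F (A_30_P01024483) was lowest at -4.07, had a median of -2.53 and was highest at 1.66, with fractions 1 to 3 above fractions 4 to 6 (adjusted p = 0.0375 in limma). Interval chrX:120963050-120963598 on strand F (A_30_P01020013) ran from -0.64 to 3.67 with a median of 1.35 (adjusted p = 0.0317), and chr3:58118325-58136550 on strand F (A_30_P01017564) from -4.06 to -0.33 with a median of -2.13 (adjusted p = 0.0489). Each had fractions 1 to 3 above fractions 4 to 6. Their r with a107 over the 22 arrays was 0.929, 0.926 and 0.964, and once a107 entered as a covariate the adjusted p was 0.396, 0.459 and 0.836. Over the 22 fractions left out in turn, their calls were lost 12, 4 and 16 times. The call of the third was also lost under median centring, under normexp and without a filter. The nearest gene by profile was Cym, which encodes the stomach enzyme chymosin, for the first (r = 0.972) and the olfactory receptor gene Olfr1500 for the second (r = 0.961).

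Interval chr5:23195569-23218551 on strand R (A_30_P01019583), with r = 0.812 to a107, fell from 0.82 in fraction 2 to -3.28 in fraction 6 (median -0.80, adjusted p = 0.0385). It was most like Hmmr, a gene of dividing cells that encodes a hyaluronan receptor (r = 0.948). The remaining interval of this group, chr13:56851404-56851796 on strand R (A_30_P01031881), went the other way, from -3.22 in fraction 1 to 0.62 in fraction 4 with a median of -0.64 (adjusted p = 0.0367), and had r = -0.60 with a107. Its nearest genes by profile were Xkrx (r = 0.920), Fam102a (0.906) and then Sox2, a transcription factor of neural stem cells (0.903). With a107 as a covariate the adjusted p of these intervals was 0.547 and 0.21. Their calls were lost in 13 and 10 of the 22 fits with a fraction left out, and both were lost under normexp.

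Over all members the r with a107 had a median of 0.14 and quartiles of -0.23 and 0.55. It was at least 0.8 in 129 intervals, 90 of them with a level below -2, and at most -0.8 in 12. The medians by level were 0.40 below -2, 0.14 between -2 and 0 and -0.22 above 0. The part of the spike-in response in the horizontal result was not tested beyond these fits.

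**Figure D5:**
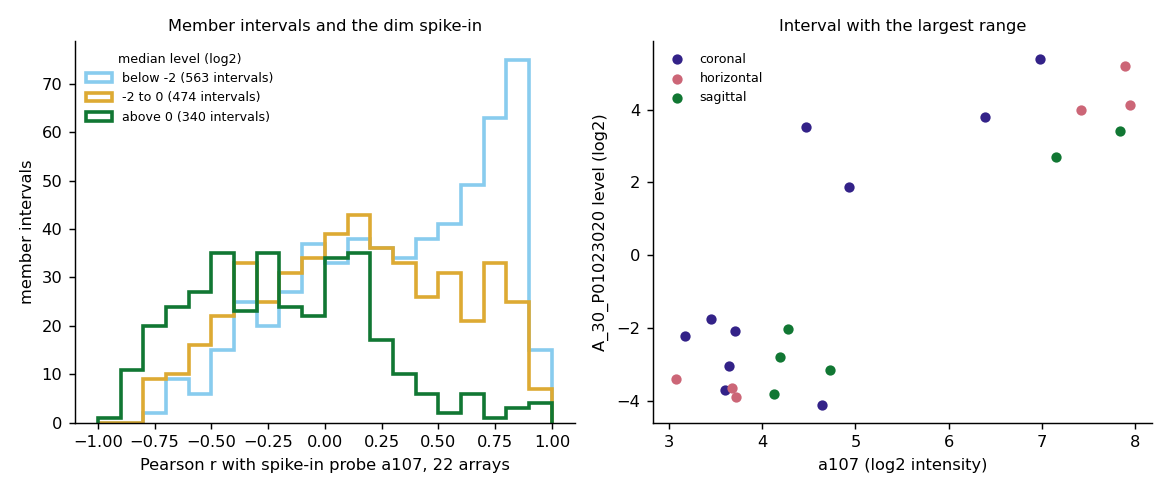
Left, number of member intervals (vertical axis) by the Pearson r of their level with spike-in probe a107 over 22 arrays (horizontal axis), for 3 classes of median level. Right, level of the interval with the largest coronal range (vertical axis, log2) against a107 (horizontal axis, log2 intensity), with 1 point per array. High r is mainly found in intervals below a level of -2, and all 7 arrays with a107 above 6 read this interval above 2.

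The sagittal series runs from 1 side of the brain to the other, and its linear term was passed by 228 intervals (16.6%), beside 10.2% of all probes and 12.2% of the RefSeq probes found everywhere. The share was 16.9% among the intervals with both strands found everywhere. Of the 228, 212 rose with fraction number (15.4%, beside 7.77% of all probes) and 16 fell (1.16%, beside 2.44%). All 212 that rose were highest in fraction 6, the pool of the last 3 slabs, where their level was a median of 1.06 log2 units above the next highest fraction. Over all 1377 intervals fraction 6 was highest for 741 (53.8%), while it was highest for 36.5% of the RefSeq probes and 58.7% of the probes for intervals with both strands. Without sagittal fraction 6 the count in limma was 0, with 54 at an unadjusted p under 0.05, and 0% of all probes passed. The result therefore rests on 1 array, for all probes as for the intervals. Fraction 6 was also the highest sagittal fraction of both granulocyte genes examined (S100a8 from -4.51 to 1.90 and S100a9 from -2.92 to 3.09), both blood genes (Hba-a1 and Alas2) and both genes of meninges and bone (Col1a1 and Dcn), and their part in the result was not tested. With no scaling the direction turned, to 7 rising and 60 falling. The count was 96 under median centring, 115 with quantile normalization, 125 with a107 as a covariate and 0 in the sagittal arrays alone. The shares of all probes in these fits were 4.25%, 4.73%, 6.89% and 0%. Under normexp the count was 349, beside 16.1% of all probes.

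Among the intervals that passed, the largest sagittal term was at chr5:149947200-149979950 on strand F (A_30_P01021097), lowest at 1.54, with a median of 2.79 and highest at 5.25. Its linear term was 3.64 with a standard error of 0.629 (adjusted p = 0.00405 in limma), and its nearest gene by profile was Rpph1, the RNA component of ribonuclease P (r = 0.963). Interval chrX:47890565-47915775 on strand F (A_30_P01030915) was lowest at 1.08, had a median of 1.86 and was highest at 3.90 (adjusted p = 0.00368). Interval chr1:88384134-88384902 on strand F (A_30_P01031278) was lowest at -1.31, had a median of -0.73 and was highest at 1.75 (adjusted p = 0.00466). Their nearest genes by profile were 0610009B22Rik (r = 0.970) for the former and Fam162a (r = 0.953) for the latter. Interval chr13:22110479-22116629 on strand R (A_30_P01022120) ran from 1.30 to 4.69 with a median of 2.65, and chr13:83878467-84023718 on strand F (A_30_P01028315) from -1.81 to 1.69 with a median of -0.91 (adjusted p = 0.027 and 0.00616). In all 5 the highest level was in fraction 6 and every call was lost without it.

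The sagittal quadratic term, the middle against both sides, was passed by 0 intervals in limma, beside 12 probes of 39602 (0.0303%). At an unadjusted p under 0.05 there were 259 of the 1377 intervals, beside 5852 of the 39602 probes.

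The intervals with the largest coronal range at each peak fraction show what a large range is made of. The largest was 9.54 at chr18:3003075-3016150 on strand R (A_30_P01023020), which ran from -4.13 in fraction 10 to 5.40 in fraction 2 with a median of -1.92. Fractions 1, 2, 8 and 9 were high and the other fractions were at -1.77 or less. Its r with a107 was 0.865, and the test of coronal position was not passed (adjusted p = 0.378 in limma). Interval chr1:69566918-69567447 on strand R (A_30_P01026304), highest in fraction 8, also followed a107 (r = 0.847) and ran from -4.35 to -1.74 with a median of -3.59. In the other direction, chr11:97457180-97487074 on strand R (A_30_P01019507), highest in fraction 10 at 1.91, and chr13:66381200-66410200 on strand F (A_30_P01025540), highest in fraction 9 at 2.53, were lowest in fraction 2, at -2.71 and -1.75. Their r with a107 was -0.838 and -0.737, and the other member probe of the former had r = -0.47 with the one used.

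Other intervals with a large range had 1 coronal fraction well away from most others. Interval chr13:78341244-78374486 on strand F (A_30_P01032791) read 0.50 in coronal fraction 5 and -3.60 or less in the other 9 coronal fractions, with a median of -3.86. Interval chr2:36112819-36114110 on strand F (A_30_P01017550) was highest at 2.51 in fraction 1 and lowest at -2.70 in fraction 2, with a median of 1.13, and the next lowest fraction read -0.23. Interval chr16:39984031-40081556 on strand R (A_30_P01026605) was highest at 6.73 in fraction 4 and lowest at 1.93 in fraction 2, with a median of 5.27. Interval chr13:94193230-94193710 on strand F (A_30_P01029264) read -0.93 in coronal fraction 7 and -1.96 or less in the other coronal fractions, with a median of -3.40. None of these passed the coronal test.

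The brightest intervals were bright everywhere. Interval chr17:48068261-48087905 on strand F (A_30_P01021243) lay between 7.13 and 8.55 over the 22 fractions with a median of 7.75, and its most similar gene was Mif, a cytokine of macrophages (r = 0.984). Interval chr17:17481706-17482457 on strand R (A_30_P01022075) lay between 7.30 and 8.51 with a median of 7.71, and was most like Rpl8, a protein of the large ribosomal subunit (r = 0.954). Interval chr2:31714946-31716972 on strand F (A_30_P01026230) lay between 5.86 in coronal fraction 2 and 8.94 in sagittal fraction 6, with a median of 7.59, and its other member probe had r = -0.47 with this one. The former pair passed the sagittal linear test (adjusted p = 0.0238 and 0.0178 in limma), with sagittal fraction 6 as the highest.

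The most even interval, chr4:138657728-138687028 on strand R (A_30_P01024106), lay between 0.10 and 0.51 over all 22 fractions. The next, chr14:44292637-44293014 on strand F (A_30_P01023804), lay between 4.89 and 5.41, and chr13:74712775-74728450 on strand R (A_30_P01022503) between -1.79 and -1.26. They cover dim and bright levels, so an even profile was not limited to bright intervals. The other strand of the last was on 21 arrays. The interval chr8:72671462-72672533 on strand F (A_30_P01017714), which the study used as an example, lay between -0.88 and 0.63 with a median of 0.07 and passed no test. It was lowest in horizontal fraction 2, and its most similar gene was Ivd, a mitochondrial enzyme of leucine breakdown (r = 0.891).

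Probes of 1 interval often differed. In the 520 intervals with more than 1 member probe the median r between profiles was 0.705, with quartiles of 0.332 and 0.895. All probes were highest in the same coronal fraction in 185 intervals (35.6%), and the median r was below 0 in 55. The median r was 0.583 in intervals below a level of -2 and 0.729 in those above 0, whereas the share with the same highest coronal fraction ran the other way, at 44.2% and 30.5%. With the mean of the member probes in place of the brightest, 406 intervals were highest in coronal fraction 2. In the 182 intervals whose other strand was on 12 to 21 arrays, the r between the strands had a median of 0.187, and was above 0.85 in 6.

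Neighbouring intervals of 1 strand were somewhat alike. Neighbours within 50 kb (263 pairs, of which 164 overlap) had a median r of 0.467, and those further apart (1074 pairs) 0.179. The same coronal fraction was highest in 32.7% and 17.5% of the pairs. Pairs that overlap can share transcripts. The run with the most members was chr8:19678750-20038750 on strand R, with 8 intervals, of which 6 were highest in coronal fraction 2 and 0 passed the coronal test. The median r within it was 0.625. The next runs were chr13:28506971-28975446 on strand R with 7 intervals (median r = 0.221), chr12:110842154-110988678 on strand F with 6 (0.247), chr16:64758224-64824632 on strand R with 5 (0.0873) and chr6:121035216-121061074 on strand R with 5 (0.203). In the run on chromosome 12 the coronal peaks were spread over 4 fractions. Merging overlapping members of 1 strand left 1213 stretches.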

How the data were processed

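RNA of 22 brain fractions was measured on 1-colour Agilent arrays. The deposited scanner files hold, per the file headers, processed intensity from Feature Extraction 10.10.1.1, already background-subtracted, and flags for spots well above background. The authors' deposited value table is on the log2 scale; 99.9% of its values lay within 0.02 of those used here. Here, control spots and spots marked as outliers by the scanner software were removed, 81 probes without a value on every array were dropped, and log2 intensity was taken relative to the 75th percentile of 55600 probes per array. That percentile lay between 260 and 604. Groups came from the labels. The model in limma 3.58.1 (R 4.3.3) had, for each series, its own intercept plus slab position entered linearly and squared, with 39602 probes, 13 residual degrees of freedom, a median residual SD of 0.376 and Benjamini-Hochberg adjustment at 0.05. Tests and models were tested on simulated data for all 39602 probes, in which a term of 3 log2 units was recovered in 70% of 200 changed probes for the coronal, 66.5% for the horizontal and 64% for the sagittal linear test. Tables and figures were made with Python 3.11.15, numpy 2.4.6, pandas 2.3.3 and matplotlib 3.10.9.

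The members and lists were chosen with earlier results of these data known. Named intervals are, among those that passed a position test, the 5 with the largest fitted change in it, the one with the largest range for each coronal peak fraction, the 3 brightest and the 3 most even, and the study's example; 6 intervals like known genes were added after their values were seen. Alternatives changed the scaling, background correction, filter, covariate, slide block, probe choice and arrays used, and are described at the end. For normexp (offset 50) the median spot signal was used, since the scanner files used here hold no mean signal. No sequence is printed for the intervals, and some marker genes are not reported here.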

Additional observations from a re-analysis of the deposited data

Results flagged for a closer look

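In 111 profiles (37 described intervals in 3 series), 12 had 1 fraction standing apart from the rest by Dixon's criterion. Chance gives about 5% in profiles that were not selected, but many of these intervals were chosen for a large range or fitted change, which favours such a fraction, so the number is a description. Sagittal fraction 6 stood above the others in 5 of them. It read 1.75 against a next value of -0.36 for A_30_P01031278, 1.69 against -0.62 for A_30_P01028315, and 0.35 against -1.003 for A_30_P01023754, the interval like Ipw. It read 8.51 against 7.69 for the bright interval A_30_P01022075 and -2.14 against -3.89 for A_30_P01032791.

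Coronal fraction 2 stood below the others in 3, at -2.70 against -0.23 for A_30_P01017550, at 1.93 against 4.34 for A_30_P01026605 and at 5.86 against 7.35 for A_30_P01026230. Interval A_30_P01032791 also stood out in coronal fraction 5, at 0.50 against -3.60. Sagittal fraction 1 was low for A_30_P01032788, the interval like Crnde (-2.79 against -1.40), and for the even interval A_30_P01024106 (0.18 against 0.35). Horizontal fraction 2 was low for A_30_P01017714 (-0.88 against -0.03). No fraction was measured again, so whether these readings repeat was not tested.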

How the results depend on the processing

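No paired analysis was possible because fraction numbers mark positions along 3 different axes in 3 mice and no test compares the series. Under median centring, quantile normalization and no scaling the coronal count was 141, 180 and 113, and the sagittal linear count 96, 115 and 67. The horizontal count was 21 under median centring. With the slide as a block the coronal, horizontal and sagittal quadratic counts were 40, 197 and 4. With a107 as a covariate the horizontal, sagittal linear and quadratic counts were 4, 125 and 1. Without a filter the coronal and horizontal counts were 182 and 30. With the linear term alone they were 80 and 4. Each series alone gave 12 coronal, 0 horizontal and 0 sagittal linear calls in limma (302 and 540 at an unadjusted p under 0.05 for the last pair), and over probes found on all 22 arrays the horizontal and quadratic counts were 194 and 25. Normexp gave 349 sagittal linear and 44 quadratic calls and a median coronal range of 0.993. No scaling gave 1 quadratic call. Settings added after seeing the data were slide 1 alone (103 coronal calls, 18 rising and 85 falling) and arrays with the spike-in slope in range (137 coronal and 0 horizontal). Over the alternatives the share of all probes tested that passed also moved, from 1.6% to 32.7% for coronal position. For horizontal position it ran from 0% to 16.1% and for the sagittal linear term from 0% to 18.9%. The cause of these moves was not tested.

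Leaving out single fractions gave 144 to 396 coronal, 0 to 237 horizontal, 0 to 279 sagittal linear and 0 to 10 quadratic calls. The shares of all probes in these fits ran from 12.3% to 27%, 0.0227% to 16.5%, 0% to 12.5% and 0% to 0.995%. The horizontal count moved by over 1.5 times without any horizontal or sagittal fraction or without coronal fraction 1 (120), 2 (237), 5 (38), 6 (35), 7 (38) or 10 (139), and was 0 without horizontal fraction 1. The number of members lay between 1375 and 1387 and was 481 when only intervals with probes on both strands counted. The median coronal range lay between 1.19 and 1.43 and the number of intervals highest in coronal fraction 2, with another coronal fraction left out, between 391 and 421. That number was 230 under median centring, 207 with no scaling and 183 with a107 regressed out.

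The linear term turned sign for A_30_P01020727 with the slide as a block (adjusted p = 0.038 in limma) and on slide 1 alone (0.0905), for A_30_P01024483 and A_30_P01031881 (both adjusted p = 1) and A_30_P01023774 (coronal, 0.152) with the slope in range, and for A_30_P01031936 (coronal) on slide 1 alone (0.432) and without coronal fraction 10, where its adjusted p over the left-out fractions ran from 0.0001896 to its highest value of 0.141. Of the other single-interval values, tests and coronal ranges together, 706 were kept, 132 lost the call and 50 ranges moved. A test was kept if its direction and side of the threshold stayed, a range if it changed by less than 0.376 log2 units. Of the intervals, 563 lay below a level of -2, where signal is nearest to background.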
